A study of Rattus norvegicus with 23 samples.

Results

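The hippocampal transcripts for voltage-gated calcium channels and for the pumps and exchangers that move calcium out of the cell were measured in young rats, aged rats and aged rats given FKBP1b. The genes were chosen by symbol alone, as the probe sets that carry 1 gene symbol in the annotation of the array and whose symbol begins with Cacna1, Cacna2d, Cacnb or Cacng, together with Atp2b1 to Atp2b4 and Slc8a1 to Slc8a3. This gave 31 genes with 1 probe set each, of 15307 probe sets with 1 symbol and 29211 in all. They are 24 channel subunits and 7 extrusion genes, and all 31 passed the minimum, 4 or more arrays with a signal of 40 or higher, that left 13339 probe sets to test. Cacna1s and Cacna2d4 have no entry in the annotation.

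A voltage-gated calcium channel is built around an alpha1 subunit, which forms the pore, senses voltage and gives the channel its type. Alpha2delta and beta subunits bring the pore to the membrane and tune its gating, and most gamma subunits of the brain act instead as auxiliary proteins of AMPA glutamate receptors. Plasma membrane calcium ATPases (PMCA) pump calcium out at high affinity, and sodium-calcium exchangers (NCX) move it out at high capacity in exchange for sodium. In aged hippocampal neurons, larger L-type calcium currents and calcium transients are a known feature, and FKBP1b, an immunophilin that binds ryanodine receptors and restrains calcium release from stores, has been linked to the same age-related dysregulation.

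Each sample was the dorsal hippocampus of a single male F344 rat, read on a whole-transcript rat array from Affymetrix. The 6 young controls (YC) were 5 to 6 months old and are labelled sham, although the design text describes no injection. The 5 aged controls (AC), 6 short-term (ST) and 6 long-term (LT) rats were 21 months old, and all 3 groups had received an adeno-associated virus with a CaMKII promoter, which drives expression mainly in excitatory neurons, into hippocampal field CA1. The AC virus carried eGFP and the ST and LT viruses FKBP1b. By the labels the injection was at 18 months with 3 months of exposure in AC and ST, and at 12 months with 9 months of exposure in LT. The design text instead gives 13 months for AC, 19 for ST and 13 for LT. The rats of ST and LT on these arrays were those whose FKBP1b expression exceeded their group's median. Age, surgery and vector cannot be told apart in AC vs YC. In ST or LT vs AC the transgene cannot be told apart from the titer, which was higher for the eGFP virus. Injection age and length of exposure differ as well, in LT vs AC by the labels and in ST vs AC by the design text, and cannot be told apart from the transgene there.

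The values are unlogged RMA signals, a background-corrected, normalized and probe-summarized brightness with no depth, so that the number of arrays limits their precision. Array medians lay between 134 and 141. The probe set annotated to Fkbp1b read 373 ± 20.4 (SD, n = 6) in YC, 401 ± 40.5 (n = 5) in AC, 694 ± 153 (n = 6) in ST and 1002 ± 147 (n = 6) in LT, in the order of the labels. Its gene name comes from the array's annotation, but the study describes the array as having no probe set for the gene, so what it measures is uncertain. Arrays that stood apart were 4 high in choroid plexus markers (replicates 3 and 4 of AC, replicates 2 and 5 of LT) and AC replicate 5, described with the spread of the genes. Of 11 choroid plexus markers 10 were found and none was listed at 0. Their summed signal was 720 to 1192 over the ST arrays and 1184 to 1890 over the YC arrays, but 974 to 28548 over the AC arrays and 2101 to 22912 over the LT arrays. In bulk tissue, fewer cells of a type and less RNA per cell cannot be told apart.

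Of the 31 genes, 1 was called in the comparison of aged with young controls and 0 in the comparisons with FKBP1b. In AC vs YC, 1 gene (Atp2b3) was higher and 0 were lower at an adjusted p under 0.05 by limma, where 9.75% of all tested probe sets passed, 5.56% higher and 4.18% lower. At an unadjusted p under 0.05 there were 2 of 31 genes (Atp2b3 and Cacng4) against 27.4% of all probe sets. This count depended on single AC arrays, since it was 8 of 31 without AC replicate 1 and 7 of 31 without AC replicate 2, against 30.6% and 26.4% of all probe sets. No gene was called in ST vs AC (background 0%) or in LT vs AC (background 0.075%). At an unadjusted p under 0.05, 2 genes passed in ST vs AC and 2 in LT vs AC, against 9.82% and 12.6% of all probe sets. Without AC replicate 1 these counts were 11 of 31 and 1 of 31, against backgrounds of 15.6% and 16.0%, and without AC replicate 2 they were 4 and 6, against 13.2% in both. With ST and LT averaged against AC there were 0 calls and 2 genes at an unadjusted p under 0.05, with backgrounds of 0.03% and 10.5%. An F test across the 4 groups called 0 of 31 genes and gave 3 at an unadjusted p under 0.05, with backgrounds of 5.46% and 24.2%. A one-way analysis of variance of the unlogged values, the type of test the methods used as a first step, was also run. The study tested more probe sets and more AC arrays. It also set values over 2 SDs from the group mean to missing, which this run did not. At the methods' unadjusted threshold 3 of 31 genes (Cacnb1, Cacng4 and Atp2b3) and 24.2% of all probe sets passed. After the second step, Fisher's least significant difference, the genes that passed were 2 in AC vs YC (Cacng4 and Atp2b3, background 18.3%), 1 in ST vs AC (Atp2b3, 6.09%), 0 in LT vs AC (9.11%) and 1 in LT vs ST (Cacnb1, 8.19%).

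**Figure D1:**
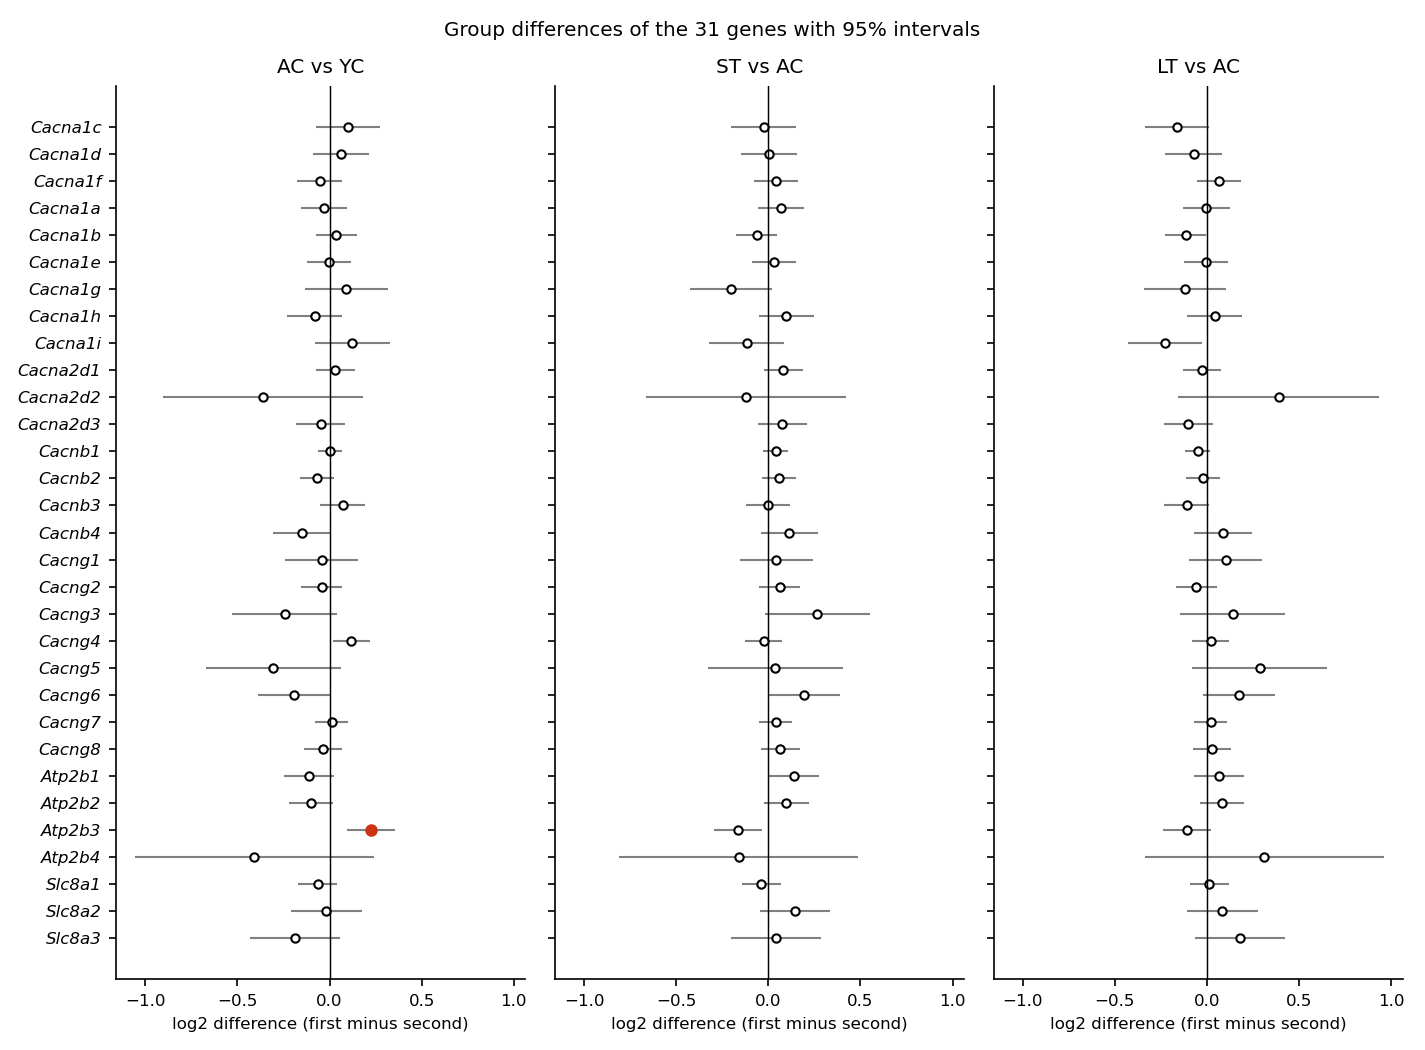
Log2 difference (points) and its 95% interval (lines) for each of the 31 genes in AC vs YC, ST vs AC and LT vs AC, from the limma model over 23 arrays. The filled point is the only call at an adjusted p under 0.05, Atp2b3 in AC vs YC at 0.22, and the widest intervals are those of Atp2b4, Cacna2d2 and Cacng5.

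The extrusion genes held the single call. Atp2b3 encodes PMCA3, a pump isoform found mainly in brain. Its signals in YC ran from 1232 to 1389 with a median of 1296. In AC they were 1449, 1324, 1694, 1803 and 1410, in ST they ran from 1278 to 1427 (median 1368), and in LT from 1335 to 1536 (median 1392). AC replicates 3 and 4 stood above every other array, while AC replicate 2 lay inside the YC range, so the groups overlapped. Means were 1308 ± 60.0 in YC and 1536 ± 203 in AC (SD), and the log2 difference of AC vs YC was 0.22 with a standard error of 0.06 and an adjusted p of 0.0281 by limma. In ST vs AC the log2 difference was -0.16 (95% interval -0.30 to -0.03) and in LT vs AC -0.11 (-0.24 to 0.02), with adjusted p values of 0.423 and 0.486 by limma.

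The 4 arrays with the highest Atp2b3 signal were the same 4 arrays with a choroid plexus marker score over 2. The score is the mean log2 signal of the 10 markers after centring each on its mean over arrays. AC replicates 3 and 4 scored 2.80 and 3.28 and LT replicates 2 and 5 scored 2.67 and 2.83, whereas the next array, LT replicate 1, scored 0.65. Ttr, which encodes the transthyretin that choroid plexus secretes, read 14549 and 16411 on those AC arrays and between 363 and 694 on the other AC arrays. Without the 4 arrays, the AC vs YC difference of Atp2b3 was 0.09 with an adjusted p of 0.231 by limma, and it was 0.12 with an adjusted p of 0.0579 with the score as a covariate. The ST vs AC difference went from -0.16 to -0.03 without them. Leaving out AC replicate 3 alone gave a difference of 0.19 (adjusted p 0.0883 by limma), and leaving out AC replicate 4 gave 0.16 (0.0874). The call was also lost, at nearly the same difference, without YC replicate 2 (adjusted p 0.0647), YC replicate 3 (0.0516) or YC replicate 6 (0.0557) by limma.

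**Figure D2:**
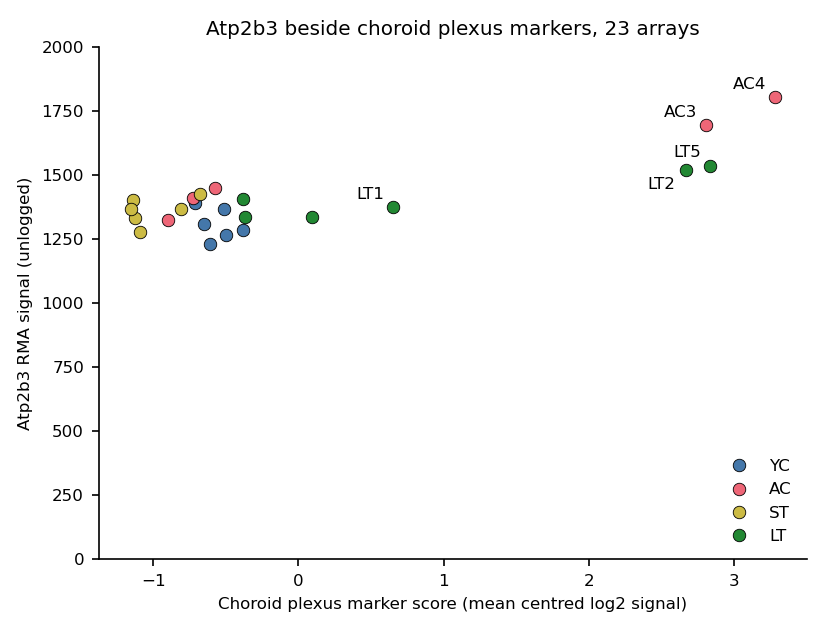
Atp2b3 signal (unlogged RMA, vertical axis from 0) against the choroid plexus marker score (mean centred log2 signal) for the 23 arrays, each point 1 array colored by group. AC replicates 3 and 4 and LT replicates 2 and 5 lie to the right with Atp2b3 signals of 1694, 1803, 1519 and 1536, above all other arrays.

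No other pump was called. Atp2b1 encodes PMCA1, the housekeeping pump, and Atp2b2 encodes PMCA2, a fast neuronal isoform. Atp2b1 read 5345 to 5613 in YC (median 5410), 5927, 5145, 5296, 5231 and 3857 in AC, and it covered 5437 to 5680 over the ST arrays (median 5536) and 4863 to 5452 over the LT arrays (median 5352). Atp2b2 read 2661 to 2748 in YC, 2822, 2740, 2644, 2541 and 1970 in AC, and it covered 2564 to 2838 over the ST arrays and 2635 to 2713 over the LT arrays. Ranges were narrow in YC, and in ST and LT apart from Atp2b1 on LT replicate 5, at 4863. In both genes the lowest of all arrays was AC replicate 5, far below the rest. With that array the AC vs YC log2 differences were -0.11 for Atp2b1 and -0.10 for Atp2b2 (adjusted p 0.274 and 0.277 by limma), and without it -0.02 and -0.01. Atp2b1 in ST vs AC, 1 of the 2 genes there at an unadjusted p under 0.05 (log2 difference 0.14, adjusted p 0.504 by limma), fell to 0.04 without AC replicate 5.

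Atp2b4, which encodes the widely expressed PMCA4, had the largest within-group SD on the log2 scale of the 31 genes in YC, AC and ST. It ran from 426 to 1271 in YC (median 982), was 357, 1137, 430, 677 and 776 in AC, and ran from 387 to 877 in ST (median 561) and from 542 to 1062 in LT (median 836.5). High and low arrays occurred in every group, and the groups overlapped throughout. The log2 difference was -0.41 in AC vs YC (95% interval -1.06 to 0.24) and 0.31 in LT vs AC (-0.34 to 0.96), with adjusted p values of 0.419 and 0.692 by limma. Without the 4 arrays high in choroid plexus markers the LT vs AC value was near 0, at -0.01.

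Atp2b1 and Atp2b2 were low together on AC replicate 5, while Atp2b4, at 776, was not low there. These genes were picked after that array was seen, and a link between promoter and signal was not tested. The stretches before their start sites are shown. They are the 250 bases upstream of the RefSeq start (assembly GRCr8), 5′ to 3′ on the strand of the gene, with each GC box, GGGCGG on either strand, in capitals. Atp2b1 lies at chr7:35622211-35622460 on the plus strand, Atp2b2 at chr4:148763654-148763903 on the minus strand and Atp2b4 at chr13:47758877-47759126 on the minus strand.
Atp2b1: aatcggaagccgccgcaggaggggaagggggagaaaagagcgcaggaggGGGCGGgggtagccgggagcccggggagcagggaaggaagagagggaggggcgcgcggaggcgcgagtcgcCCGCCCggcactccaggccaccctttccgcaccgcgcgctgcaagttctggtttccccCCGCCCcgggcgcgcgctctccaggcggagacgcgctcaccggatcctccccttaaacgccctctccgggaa
Atp2b2: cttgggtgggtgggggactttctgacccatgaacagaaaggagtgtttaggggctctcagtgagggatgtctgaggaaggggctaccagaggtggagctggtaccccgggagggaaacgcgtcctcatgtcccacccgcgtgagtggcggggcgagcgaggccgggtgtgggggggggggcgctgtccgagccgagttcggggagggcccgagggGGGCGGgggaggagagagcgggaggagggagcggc
Atp2b4: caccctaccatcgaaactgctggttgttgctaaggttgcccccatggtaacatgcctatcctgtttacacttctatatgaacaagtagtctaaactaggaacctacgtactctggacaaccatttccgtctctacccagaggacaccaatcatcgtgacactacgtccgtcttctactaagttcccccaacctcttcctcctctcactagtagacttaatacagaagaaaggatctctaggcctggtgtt
The Atp2b1 and Atp2b2 stretches hold the GC box and the Atp2b4 stretch does not. Other genes with the GC box include Cacng3 and Cacna1a, low on AC replicate 5, and Cacna1b, high on it. Promoters of 22 of the 31 genes matched by gene ID, Atp2b3 not among them. The GC box was in 14 of the 22, or 63.6%, against 38.9% of 21842 promoters of protein-coding genes and 30.5% of all 33469 promoters of the same length. The cAMP response element TGACGTCA was in 0 of 22 (1.59% of all promoters), the E-box CACGTG in 0 of 22 (5.59%) and TATAAA in 1, Cacng2 (12.9%), each searched on both strands.

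No exchanger was called in any comparison by limma. Slc8a1 encodes NCX1, the most widespread form, and read 1456 ± 89.2 in YC, 1394 ± 109 in AC, 1355 ± 36.7 in ST and 1404 ± 84.4 in LT (SD). Slc8a2 encodes NCX2, the main neuronal form, and read 1356 ± 59.1, 1357 ± 235, 1482 ± 99.8 and 1424 ± 154 in the same order. Its AC spread rested on replicate 5, at 968 where the other AC arrays read 1370 to 1592. Slc8a3 encodes NCX3, of brain and muscle, and read 227 ± 30.9, 200 ± 37.0, 204 ± 21.6 and 226 ± 33.9. The 95% intervals of AC vs YC on the log2 scale were -0.17 to 0.04 for Slc8a1, -0.21 to 0.17 for Slc8a2 and -0.43 to 0.05 for Slc8a3.

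The L-type pores, the channels of the aging question, showed no call in any comparison. Cacna1c encodes Cav1.2, the main L-type pore of hippocampal pyramidal cells. It ran from 540 to 678 in YC (median 588), was 703, 545, 623, 597 and 735 in AC, and ran from 576 to 689 in ST (median 617.5) and from 481 to 654 in LT (median 574). The highest array was AC replicate 5 and the lowest LT replicate 5, and all groups overlapped. The log2 difference was 0.10 in AC vs YC (95% interval -0.07 to 0.27, adjusted p 0.463 by limma) and -0.16 in LT vs AC (-0.34 to 0.01, adjusted p 0.421), and without AC replicate 5 these were 0.05 and -0.11. Cacna1d encodes Cav1.3, the L-type pore that opens at lower voltage, and read 740 ± 30.9 in YC, 778 ± 106 in AC, 775 ± 32.2 in ST and 738 ± 77.2 in LT (SD). Its AC vs YC interval on the log2 scale was -0.09 to 0.22, its ST vs AC interval -0.15 to 0.16 and its LT vs AC interval -0.23 to 0.08. Cacna1f, which encodes the retinal Cav1.4, stayed between 54 and 69 on all 23 arrays, close above the signal minimum.

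Pores of the channels that trigger transmitter release had no call either. Cacna1a (Cav2.1, P/Q-type) read 1538 ± 75.0 in YC, 1510 ± 154 in AC, 1578 ± 66.1 in ST and 1503 ± 123 in LT (SD). Cacna1e (Cav2.3, R-type) read 2063 ± 97.3, 2061 ± 199, 2102 ± 74.4 and 2053 ± 158. Their AC vs YC log2 differences were -0.03 (95% interval -0.16 to 0.10) and -0.01 (-0.12 to 0.11). Cacna1b (Cav2.2, N-type) read 724 ± 18.1, 746 ± 82.7, 711 ± 22.4 and 687 ± 39.4, and its LT vs AC log2 difference of -0.12 was 1 of the 2 values there at an unadjusted p under 0.05 (adjusted p 0.375 by limma). Cacna1b was 868 on AC replicate 5 and 649 to 775 on the other AC arrays, and the LT vs AC difference without that array was -0.06.

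Among the T-type pores, which open near rest and support burst firing, a single array read high in Cacna1g and Cacna1i and low in Cacna1h. Cacna1i (Cav3.3) ran from 552 to 610 in YC (median 579), was 643, 566, 595, 524 and 882 in AC, and ran from 517 to 641 in ST (median 585) and from 432 to 591 in LT (median 562.5). Cacna1g (Cav3.1) ran from 278 to 323 in YC, was 265, 328, 272, 295 and 511 in AC, and ran from 269 to 304 in ST and from 280 to 310 in LT. In both genes AC replicate 5 was the highest of the 23 arrays, and the other AC arrays lay near the ranges of the other groups. Cacna1h (Cav3.2) read 818 on AC replicate 5 and 982 to 1219 on the other AC arrays. The Cacna1i difference in LT vs AC, the other value at an unadjusted p under 0.05 (log2 difference -0.23, standard error 0.10, adjusted p 0.340 by limma), was -0.11 without AC replicate 5, and the Cacna1g difference in AC vs YC went from 0.09 to -0.07.

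The alpha2delta subunits are extracellular partners of the pore, and the proteins of Cacna2d1 and Cacna2d2 bind gabapentin. Cacna2d3 ran from 1669 to 1859 in YC (median 1732), was 1888, 1544, 1667, 1625 and 1756 in AC, and ran from 1690 to 1932 in ST (median 1768) and from 1297 to 1783 in LT (median 1612). LT arrays sat lowest, most of all LT replicate 5 at 1297, and overlapped every other group. Cacna2d1 ran from 1522 to 1723 in YC (median 1602), was 1824, 1566, 1683, 1661 and 1520 in AC, and ran from 1677 to 1847 in ST (median 1706) and from 1435 to 1736 in LT (median 1616). ST was the group with the highest mean of both genes. In LT vs ST the log2 difference was -0.18 (standard error 0.06) for Cacna2d3 and -0.11 (0.05) for Cacna2d1, with adjusted p values of 0.256 and 0.370 by limma. Cacna2d2 was among the most variable genes and ran from 301 to 676 in YC (median 508), was 259, 646, 303, 374 and 283 in AC, and ran from 256 to 421 in ST (median 335.5) and from 296 to 708 in LT (median 501). Its LT vs ST log2 difference of 0.51 had a 95% interval of -0.01 to 1.03.

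Beta subunits sit inside the cell on an intracellular linker of the pore. Cacnb1 ran from 969 to 1009 in YC (median 996), was 1010, 1055, 968, 930 and 1010 in AC, and ran from 981 to 1056 in ST (median 1028) and from 912 to 1020 in LT (median 957.5). LT had the lowest median and ST the highest, with overlap at 981 to 1020. The LT vs ST log2 difference was -0.09 (standard error 0.03, adjusted p 0.258 by limma). Cacnb2 ran from 1497 to 1637 in YC (median 1563), was 1669, 1429, 1458, 1508 and 1413 in AC, and ran from 1492 to 1630 in ST (median 1538) and from 1345 to 1572 in LT (median 1470). Most AC and LT arrays lay below the YC median, but AC replicate 1 was the highest of all arrays, and the AC vs YC log2 difference was -0.07 (95% interval -0.16 to 0.02).

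Cacnb3, the beta subunit often paired with N-type and L-type pores of neurons, ran from 664 to 767 in YC (median 701.5), was 834, 714, 768, 711 and 706 in AC, and ran from 726 to 765 in ST (median 744) and from 605 to 803 in LT (median 690.5). The ST arrays were the tightest and the LT arrays the widest, around one another's values. The LT vs AC log2 difference was -0.11 (95% interval -0.23 to 0.01). Cacnb4, whose loss causes the lethargic mouse phenotype, read 1102 ± 80.6 in YC, 1001 ± 145 in AC, 1075 ± 76.0 in ST and 1054 ± 41.4 in LT (SD). Its AC vs YC log2 difference of -0.15 (adjusted p 0.204 by limma) was -0.06 without AC replicate 5, which read 766.

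Of the gamma genes, Cacng2, Cacng3, Cacng4 and Cacng8 encode transmembrane AMPA receptor regulatory proteins (TARPs), with Cacng2 being stargazin. Cacng4 ran from 492 to 567 in YC (median 535.5), was 541, 625, 565, 612 and 546 in AC, and ran from 529 to 604 in ST (median 563) and from 544 to 634 in LT (median 588.5). All aged arrays except ST replicate 3, at 529, lay above the YC median, and each aged group overlapped YC. The log2 difference was 0.12 in AC vs YC (standard error 0.05, adjusted p 0.112 by limma), 0.14 in LT vs YC (adjusted p 0.157) and 0.02 in LT vs AC (95% interval -0.08 to 0.12). Cacng2 ran from 1420 to 1554 in YC (median 1450), was 1568, 1550, 1428, 1347 and 1281 in AC, and ran from 1386 to 1553 in ST (median 1505) and from 1225 to 1506 in LT (median 1379). Its LT vs ST log2 difference was -0.12 (standard error 0.05, adjusted p 0.347 by limma), again with LT replicate 5 lowest.

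Cacng3 read 2207 to 2440 in YC (median 2350), 2517, 2326, 2219, 2178 and 1063 in AC, 2270 to 2659 in ST (median 2312) and 2062 to 2248 in LT (median 2200). All LT arrays lay below all ST arrays, and in the other genes and the other comparisons of 2 groups the arrays overlapped. The share of all probe sets whose groups did not overlap was 1.5% in LT vs ST, 5.09% in AC vs YC, 0.51% in ST vs AC, 1.03% in LT vs AC, 4.72% in ST vs YC and 3.33% in LT vs YC. The LT vs ST log2 difference was -0.13 (95% interval -0.40 to 0.14). That interval uses 1 spread shared by the 4 groups, which AC replicate 5 widens although it is in neither group. The log2 SD of Cacng3 was 0.51 in AC, against 0.09 in ST and 0.055 in LT. The AC mean rested on replicate 5, since AC vs YC was -0.24 with it and -0.02 without it. Cacng8 (1659 ± 149 in AC and 1695 ± 82.3 in YC) and Cacng7 (1422 ± 104 and 1409 ± 34.4) had AC vs YC log2 differences of -0.03 and 0.01.

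The remaining gamma genes were dim or variable. Cacng1, the gamma subunit of skeletal muscle channels, read 42 to 64 and its relative Cacng6 read 55 to 94 over all arrays. Cacng6 ran from 60 to 94 in YC (median 66.5), was 76, 56, 55, 61 and 62 in AC, and ran from 63 to 79 in ST (median 70) and from 62 to 76 in LT (median 70). AC arrays other than replicate 1 were at or below 62, a level that the lowest YC and LT arrays reached, and the ST arrays overlapped AC only through replicate 1. The log2 difference was -0.19 in AC vs YC and 0.18 for ST and LT averaged against AC, with adjusted p values of 0.187 and 0.444 by limma. Cacng5, a TARP-like gamma gene, ran from 194 to 349 in YC (median 312.5), was 223, 329, 166, 268 and 186 in AC, and ran from 197 to 251 in ST (median 241) and from 209 to 350 in LT (median 302). ST arrays were bunched and those of the other groups were spread over most of the same range.

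**Figure D3:**
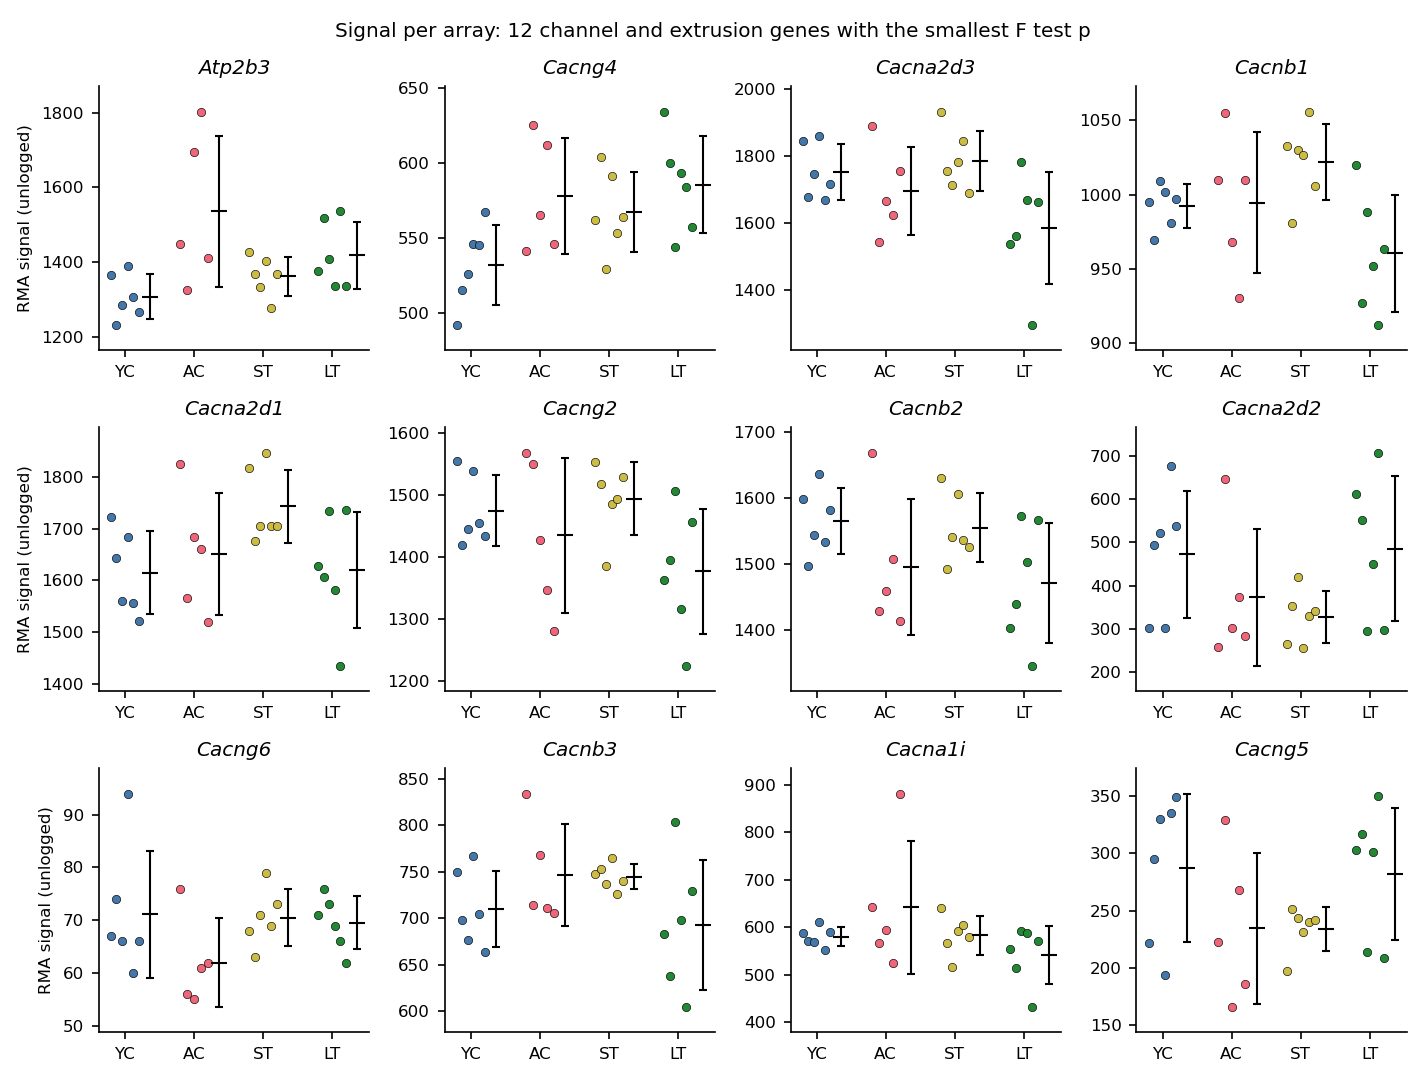
Unlogged RMA signal on each array for the 12 genes with the smallest F test p, by group, with the mean and SD beside the points; each vertical axis has its own range and does not start at 0. All groups overlap in each panel, and the only adjusted call among them is Atp2b3 in AC vs YC.

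LT and ST were compared directly, but they differ in injection age as well as length of exposure, and these cannot be told apart. The probe set annotated to Fkbp1b also read higher in LT (1002) than in ST (694). The LT arrays high in choroid plexus markers, replicates 2 and 5, have no counterpart in ST. Of the 31 genes 0 were called, against 0.0075% of all probe sets. At an unadjusted p under 0.05, 4 genes were lower in LT and 0 higher (Cacna2d3, Cacnb1, Cacng2 and Cacna2d1), against 7.45% of all probe sets lower and 4.95% higher (12.4% in all). LT replicate 5 was lowest of LT in 17 of 31 genes and highest in 6, against 19% and 16% of all probe sets. Its summed excitatory neuron markers, at 17822, were the lowest of the 23 arrays, and their part was not tested. Without this array the log2 difference went from -0.18 to -0.12 for Cacna2d3 and from -0.09 to -0.08 for Cacnb1. It went from -0.12 to -0.09 for Cacng2 and from -0.11 to -0.07 for Cacna2d1. Estimates were below 0 for 21 of 31 genes, or 67.7%, against 57.5% of all probe sets. Compared with YC, 0 genes were called in ST (background 4.15%) and 0 in LT (background 1.03%). At an unadjusted p under 0.05 there were 2 genes in ST vs YC (Cacna2d1 and Slc8a1) and 3 in LT vs YC (Cacng4, Cacna2d3 and Cacnb2), against 21.7% and 13.4% of all probe sets.

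AC replicates 1 and 5 lay at the ends of the AC range in most of these genes. Replicate 5 was the lowest of the 5 AC arrays in 15 of 31 genes and the highest in 5, and over all tested probe sets it was lowest or highest in 56.3%. Replicate 1 was the highest in 16 of 31 genes and the lowest in 5, and over all tested probe sets it was lowest or highest in 39.7%. The median within-group SD of the 31 genes, in log2 units, was 0.18 in AC, 0.07 in YC, 0.07 in ST and 0.10 in LT, and in AC it was 0.11 without replicate 5. Over all tested probe sets the medians were 0.11, 0.07, 0.08 and 0.08 in the same order, and 0.09 in AC without replicate 5. AC had the largest SD of the 4 groups in 25 of 31 genes, and also the largest median SD over all tested probe sets. The share of all probe sets with their largest SD in AC was not counted. Replicate 5 was low in Cacng3, Atp2b1, Atp2b2, Slc8a2, Cacna1h, Cacnb4, Cacng7 and Cacna1a and high in Cacna1g, Cacna1i, Cacna1b and Cacna1c.

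Markers moved on AC replicate 5 too. Prox1, a marker of dentate granule cells, read 333 on AC replicate 5 and 741 to 950 on the other AC arrays. Calb1, the other granule cell marker found, went the opposite way. It read 834 on that array, where the highest YC, ST and LT arrays read 814, 780 and 727. The summed signal of these 2 of 3 markers was 1167 there, below the ranges of YC (1423 to 1639), ST (1387 to 1621) and LT (1254 to 1644). The summed signal of the 5 of 5 microglia markers was 4482 on that array, above all YC (2004 to 2113), ST (2470 to 3284) and LT (2479 to 3145) arrays. The summed excitatory neuron markers, 5 of 5 found, read 19380 there, inside the YC range of 19262 to 21791. The summed oligodendrocyte markers (4 of 5 found) read 11457, the lowest of the 23 arrays, where the next lowest read 13136. Its summed astrocyte markers (5 of 5 found) and oligodendrocyte precursor markers (2 of 2 found) were the highest of the 23 arrays, at 13483 and 1199. Its RNA integrity number was 8.9, the lowest of AC and shared with 1 LT array. The part of these in the values above was not tested.

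The share of the 31 genes with estimates below 0 in the comparisons with AC depended on which AC arrays were in the fit. In AC vs YC 20 of 31 estimates were below 0 and the median was -0.04, where all probe sets had 52.5% below 0 and a median of -0.01. Without AC replicate 5 it was 18 of 31 and -0.01 (52.0% of all probe sets below 0), without the 4 choroid-high arrays 19 of 31 and -0.02 (50.4%), and without AC replicate 1 it was 24 of 31 and -0.08 (53.4%). Leaving out AC replicate 5 and the 4 choroid-high arrays together, which leaves AC with replicates 1 and 2 alone, gave 9 of 31 and 0.05 (47.3%). In ST vs AC, 10 of 31 estimates were below 0 with all arrays (43.3% of all probe sets) and 24 of 31 without those 5 (49.2%). In LT vs AC, 14 of 31 were below 0 with all arrays (51.8%) and 25 of 31 without those 5 (57.6%). The 3 comparisons share the AC arrays, so these counts without the 5 arrays all rest on the same pair of aged controls.

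**Figure D4:**
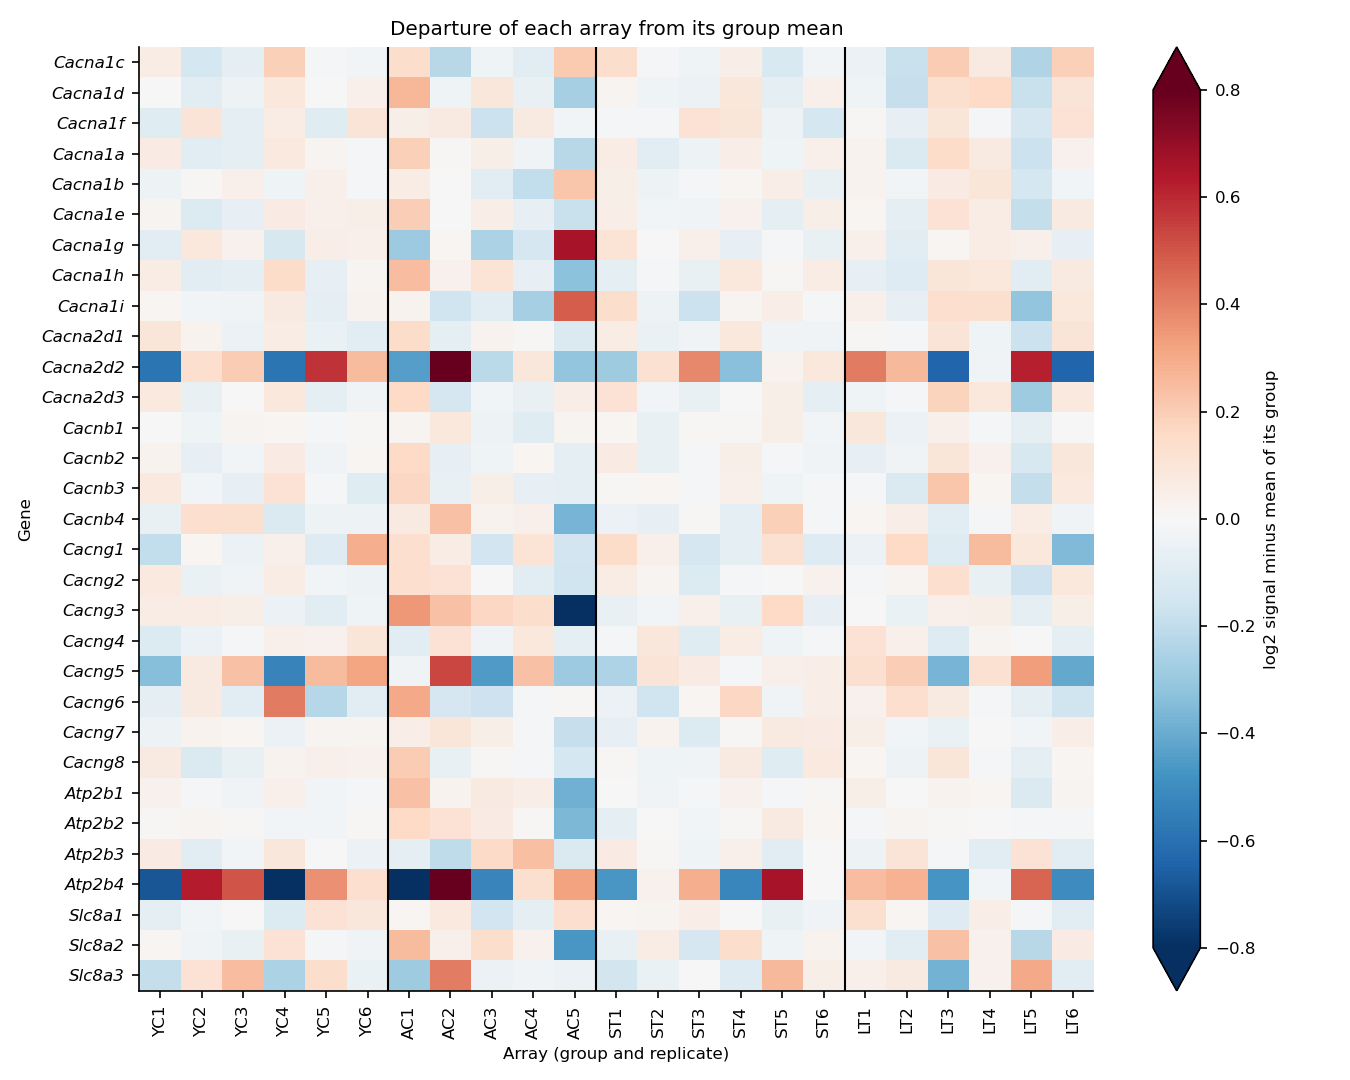
Log2 signal of the 31 genes (rows) on each of the 23 arrays (columns) minus the mean of the array's group, with colors saturating at 0.8 in either direction. AC replicate 5 departs in many rows, with Cacng3 low and Cacna1g and Cacna1i high, and the rows of Atp2b4, Cacna2d2 and Cacng5 alternate between arrays of every group.

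Atp2b4, Cacna2d2, Cacng5 and Slc8a3 varied between arrays of the same group, high and low together on several of them. In YC, replicates 1 and 4 had the lowest Atp2b4 (512 and 426), the lowest Cacna2d2 (301 on both), the lowest Cacng5 (222 and 194) and the lowest Slc8a3 (197 and 189). In AC, replicate 2 was highest in all 4 genes, at 1137, 646, 329 and 262. In LT, replicate 5 was highest in all 4, at 1062, 708, 350 and 276. These arrays come from 3 of the groups, and the 4 genes are among the 5 with the widest intervals.

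The summed inhibitory neuron markers followed the same arrays. They were lowest of YC on replicates 1 and 4, at 5391 and 5495. AC replicate 2 (7068) and LT replicate 5 (6751) were the highest of their groups. Gad1, which encodes a GABA synthesis enzyme, read 1240 and 1210 on YC replicates 1 and 4 and 1556 to 1775 on the other YC arrays. It read 1699 on AC replicate 2 against 1110 to 1179 on the other AC arrays, and 1684 on LT replicate 5 against 1005 to 1501. All 5 of 5 inhibitory markers were found and none was listed at 0, and their summed signal covered 5391 to 7117 over the YC arrays, 4918 to 7068 over AC, 5350 to 5866 over ST and 4488 to 6751 over LT. The group means of the markers did not all run together. Gad1, Gad2, Slc32a1 and Sst were highest in YC, but Pvalb was highest in ST (791) and lowest in LT (684). Prkcd, the 1 of 3 thalamus markers found, read 276 and 306 on YC replicates 1 and 4 and 615 to 700 on the other YC arrays, 771 on AC replicate 2 against 282 to 492, and 758 on LT replicate 5 against 353 to 716. The part of these marker levels in the signals of the 4 genes was not tested.

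**Figure D5:**
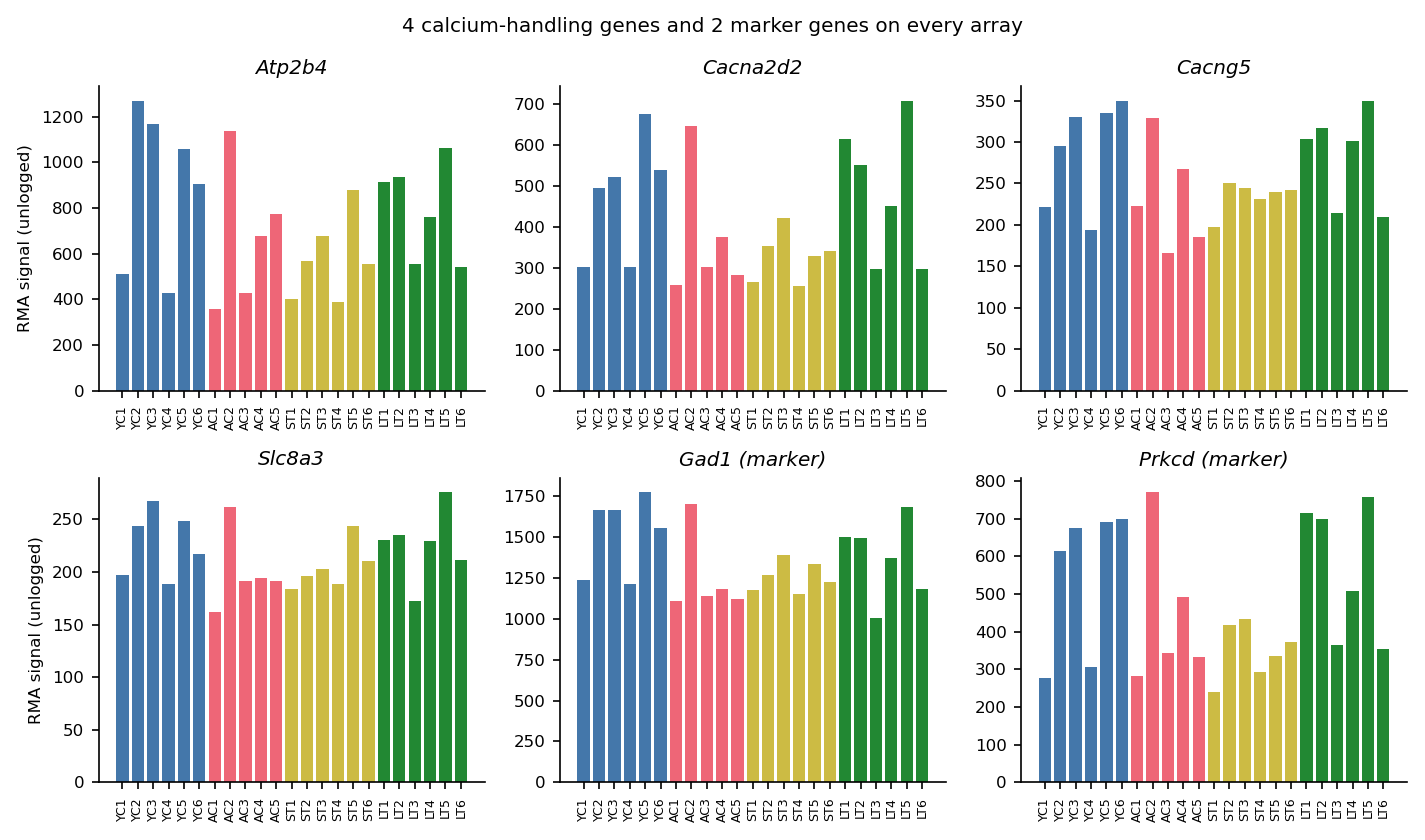
Unlogged RMA signal (bars, axes from 0) of Atp2b4, Cacna2d2, Cacng5 and Slc8a3 and of the markers Gad1 and Prkcd on each of the 23 arrays, colored by group. YC replicates 1 and 4 are low and AC replicate 2 and LT replicate 5 high in all 6 panels.

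A list of 31 other genes that act on these channels or carry calcium was read in the same fit, and 25 of them were tested. In AC vs YC 1 was higher and 2 were lower at an adjusted p under 0.05, against the 9.75% of all probe sets given above, and 3 of 25 is near that share. In ST or LT vs AC 0 were called (backgrounds 0% and 0.075%). Slc8b1 encodes NCLX, the exchanger that returns calcium from mitochondria to the cytosol. It ran from 123 to 140 in YC, was 150, 166, 145, 145 and 161 in AC, and ran from 138 to 154 in ST and from 140 to 160 in LT. Every AC array lay above every YC array, and 1 ST and 1 LT array reached down into the YC range. The log2 difference from YC was 0.24 in AC (standard error 0.05, adjusted p 0.0035 by limma), 0.18 in ST (0.0233) and 0.18 in LT (0.0461). The AC vs YC call held in 23 of 23 fits that left out 1 array, at differences of 0.21 to 0.26. It also held without the 4 choroid-high arrays and AC replicate 5, at 0.28 (adjusted p 0.0294 by limma). That fit rests on AC replicates 1 and 2 alone. The LT vs YC call held in 6 of those 23 fits. ST vs AC and LT vs AC were both -0.06 on the log2 scale, with adjusted p values of 0.697 and 0.603 by limma.

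Stac3, a muscle adaptor that brings L-type channels to the membrane, ran from 193 to 213 in YC and 177 to 215 in LT, but from 165 to 192 in AC and 163 to 200 in ST. AC arrays all lay below the YC arrays, and LT arrays spanned both. The log2 difference was -0.19 in AC vs YC (standard error 0.05, adjusted p 0.0299 by limma) and 0.18 in LT vs AC (standard error 0.05, adjusted p 0.169). Comp, a thrombospondin of cartilage, from the family whose members bind alpha2delta, ran from 69 to 78 in YC and from 65 to 73 in AC, with a log2 difference of -0.13 (adjusted p 0.0281 by limma). Both AC vs YC calls were lost without the 4 choroid-high arrays, a fit that leaves AC with replicates 1, 2 and 5 alone. The differences there were -0.17 for Stac3 and -0.11 for Comp (adjusted p 0.138 and 0.174 by limma), against -0.19 and -0.13 with all arrays. Each call was also lost in 6 of the 23 fits that left out 1 array. Slc24a1, a potassium-dependent sodium-calcium exchanger of photoreceptors, read 73 to 93 in ST and 91 to 106 in LT, beside 92 to 114 in YC and 82 to 97 in AC, with an F test adjusted p of 0.0677 by limma.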

How the data were processed

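The authors deposited signal intensities per probe set, made with Partek and the Robust Multiarray Average (RMA) algorithm per the labels and methods (versions not given in the sources used here). The deposited intensities are unlogged whole numbers on 23 arrays, 1 per rat, with 758 blanks, none in the 31 genes. Groups came from the labels. The 13339 probe sets that carry 1 gene symbol and reached 40 on 4 or more arrays entered a limma model (version 3.58.1, R 4.3.3) of log2 signal with 1 mean per group, checked on simulated data, and p values were Benjamini-Hochberg adjusted over all of them. A difference was called at an adjusted p under 0.05. The genes and lists were chosen with earlier results of these data known. Values on each array are given for called genes and the 12 with the smallest F test p, and from the other list for those called and the 4 with the smallest F test p; other genes were shown by array after their values were seen. Alternatives were leaving out each array, other filters, scalings, variance models and covariates, the study's one-way analysis of variance and, chosen after seeing the data, leaving out the 4 choroid-high arrays with or without AC replicate 5. Over 33 same-number pairs of arrays, deviations from group means correlated at -0.39 to 0.21, so the numbers were not treated as pairs. Behavior, qRT-PCR and histology were not used here.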

Additional observations from a re-analysis of the deposited data

Results flagged for a closer look

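In 5 of 124 groups of arrays (31 genes in 4 groups), the highest or lowest array lay apart from the others by Dixon's ratio, its gap to the nearest array over the range of the group. Chance flags about 1 in 20 groups. Cacng3 on AC replicate 5 was 1063 where the other AC arrays read 2178 to 2517 (ratio 0.767). Cacna1g on the same array was 511 against 265 to 328 (ratio 0.744). Atp2b1 on LT replicate 5 was 4863 against 5276 to 5452 (ratio 0.701). Cacnb4 on ST replicate 5 was 1222 against 1016 to 1081 (ratio 0.684). Cacng5 on ST replicate 1 was 197 against 231 to 251 (ratio 0.63).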

How the results depend on the processing

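The number of the 31 genes called in AC vs YC was 1 with all arrays and 0 or 1 leaving out each array in turn. It was 0 with a replicate block (Atp2b3 0.22 on the log2 scale, adjusted p 0.0542 by limma). With only the 2 groups in the fit it was 0 as well, with Atp2b3 at 0.22 (adjusted p 0.113 by limma). It was also 0 with the choroid plexus score as a covariate, where Atp2b3 was at 0.12. Without the 5 arrays whose score was over 0.5, or without the 4 over 2, the count was 0 and Atp2b3 was at 0.09. Without those 4 and AC replicate 5 the count was 0 and Atp2b3 was at 0.08. Each of these fits held fewer arrays or more terms, and the share of all probe sets called in them is not given here. Over the 16 other alternatives the log2 difference of Atp2b3 ranged from 0.08 to 0.28 and the call held in 10. The F test called 0 genes, 0 or 1 leaving out each array in turn (1, Atp2b3, without AC replicate 2), and 1 with array weights. In the other 6 comparisons the count was 0 under every alternative run. The cause was not tested. The numbers of the labels were not treated as pairs, on correlations that cannot exclude a shared batch. The block changed no other count. The limits are 5 to 6 arrays per group, a whole dorsal hippocampus that mixes cell types, and 1 probe set per gene, which reads no splice form. Cacna1f, Cacng1 and Cacng6, at signals below 100, lay near the minimum, and 28 of the 31 genes were tested at a minimum of 100.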
